A study of Mus musculus with 8 samples.

Results

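App, Bace1, Mapt, Htt, Atxn3, Tardbp and Prnp are the genes of proteins that studies of trehalose in neurodegeneration have aimed at: proteins that aggregate, and a protease that cuts one of them. The genes were chosen by symbol, and every probe that the platform annotation listed under one of them was taken, which gave 9 probes for 7 genes, out of 23473 probes and 19321 named genes on the array. App was read by probe M400000620, Mapt by M400000289, Htt by M300006492, Atxn3 by M300002610 and Prnp by M200000229. Bace1 was read by M200004770 (probe A) and M400018581 (probe B). Tardbp was read by M400002503, listed for a coding transcript (probe A), and by M400013039, listed for a non-coding transcript of the same gene (probe B).

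RNA came from the brain of male C57Bl/6J mice, labelled as 9 weeks old and housed 3 to a cage, on 8 one-colour arrays with 1 mouse each. The labels name cerebral cortex and neocortex as the tissue, while the design text speaks of the left hemisphere. The groups were mice given water and sampled at day 0 (control, n = 2), mice given trehalose for 1 day (n = 3) and mice given trehalose for 10 days (n = 3). All mice were fasted for 6 h and perfused before the brain was taken, and the labels name no transgene or mutant allele in any group, so only the endogenous mouse genes were read. The labels give no dose of trehalose. Water mice were sampled at day 0 alone, so an effect of trehalose and one of the time of sampling cannot be told apart.

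The amyloid precursor protein, encoded by App, is a membrane protein of neurons and other cells. Its first cut towards the amyloid peptide is made by the beta-secretase Bace1, and the peptide is then released by gamma-secretase. Tau, encoded by Mapt, binds microtubules in axons, while huntingtin (Htt) and the deubiquitinase ataxin-3 (Atxn3) carry the glutamine tracts that are expanded in Huntington disease and in spinocerebellar ataxia type III of humans. Tardbp encodes the RNA-binding protein TDP-43, which controls splicing and also the amount of its own messenger RNA, and Prnp encodes the prion protein, an anchored glycoprotein of the neuronal surface. Trehalose, a disaccharide of glucose, has been studied as an inducer of autophagy and as a stabiliser of proteins. An array reads RNA only, so cleavage, aggregation and clearance of these proteins were outside the measurement.

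Stretches of the promoters are shown because TFEB, a regulator of lysosomal and autophagy genes that trehalose is reported to activate, binds elements centred on the E-box CACGTG. The RefSeq promoter table (build GRCm38.p6) held 5 of the 7 genes, App, Htt, Atxn3, Tardbp and Prnp. The 250 bases before each start were searched on both strands for the E-box, which reads the same on both, and for the GC box GGGCGG, a site of Sp1-type factors, with overlapping matches counted. Each line below runs 5′ to 3′ on the gene's own strand from up to 10 bases before the first match to up to 10 after the last, with the matches in capitals.
Atxn3: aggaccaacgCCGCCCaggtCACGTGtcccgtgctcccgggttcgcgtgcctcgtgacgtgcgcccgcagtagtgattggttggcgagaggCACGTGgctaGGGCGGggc
Htt: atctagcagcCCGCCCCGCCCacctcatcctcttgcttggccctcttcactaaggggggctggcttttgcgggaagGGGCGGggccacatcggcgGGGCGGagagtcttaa
Tardbp: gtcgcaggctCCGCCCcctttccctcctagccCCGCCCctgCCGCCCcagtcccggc
Prnp: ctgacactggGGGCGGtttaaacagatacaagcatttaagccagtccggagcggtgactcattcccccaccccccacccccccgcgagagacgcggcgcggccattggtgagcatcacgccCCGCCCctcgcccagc
App: cgagccgggtGGGCGGgatcagctga

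The stretches lie at chr12:101958244-101958353 on the minus strand (Atxn3), chr5:34761513-34761623 on the plus strand (Htt), chr4:148627092-148627148 on the minus strand (Tardbp), chr2:131909772-131909908 on the plus strand (Prnp) and chr16:85173747-85173772 on the minus strand (App). Atxn3 held 2 E-boxes, whose first bases lie 90 and 19 bases before its start, and the E-box was not found in the windows of App, Htt, Tardbp and Prnp. Of 32851 promoter windows of this length, 6.02% held an E-box and 0.429% held 2 or more. The GC box was found 4 times before Htt, where the first pair shares 1 base, 3 times before Tardbp, 2 times before Atxn3 and Prnp and 1 time before App. It was present in 32.7% of all windows. A match describes letters and says nothing about binding.

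All 9 probes lay above the detection limit, set 2 SD over the average blank spot, on all 8 arrays, where 86.3% to 92.1% of all probes did so per array. Neuron markers (6 of 6 probes) and the cortex markers found on the array (3 of 3 probes, for 3 of 4 genes) were above the limit on all arrays. Summed intensity of the neuron markers was 18101 to 18975 in control, 17563 to 18055 at 1 day and 16508 to 19019 at 10 days. At 1 day the sums for neurons, astrocytes (6 probes, 8726 to 8903 at 1 day against 9190 to 9936 in control) and endothelium (4 probes, 1463 to 1626 against 1657 to 1675) all lay below both controls. At 10 days the cortex markers did so, with 1126 to 1196 against 1228 to 1272. Markers of deeper regions varied more: the 5 striatum probes summed to 6726 to 9867 in control, 3324 to 9500 at 1 day and 6695 to 7711 at 10 days. The 6 thalamus probes summed to 2151 to 2497, 2649 to 3531 and 2692 to 3025 in the same order, with 1 probe for Tcf7l2 under the limit on all arrays. The thalamus sums thus lay above both controls at both times. Oligodendrocyte, microglia and choroid plexus sums overlapped control at 1 day, and neuron, astrocyte and endothelium sums overlapped it at 10 days. At 10 days the choroid plexus sums (4 probes) lay just above both controls, with 30158.6 to 30174.5 against 25625.7 to 30154.8. The 1 blood probe did so too, with 90.4 to 91.1 against 86.2 to 89.3. The marker sums therefore did not share 1 direction. The part of tissue composition in the values that follow was not tested, and in bulk tissue fewer cells of a type and less RNA per cell cannot be told apart.

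App showed no difference that exceeded the spread between mice, and its 2 control mice marked the ends of the range. Log2 intensity of App was 12.25 and 12.52 in control, 12.30, 12.29 and 12.27 at 1 day, and 12.41, 12.43 and 12.31 at 10 days. All 6 trehalose arrays thus lay between the 2 controls, the lowest and the highest of the 8. The log2 change was -0.098 at 1 day against control (SE 0.078, 95% interval -0.28 to 0.08) and -0.0037 at 10 days against control (SE 0.078, -0.18 to 0.18). Between the times App was 0.094 higher at 10 days than at 1 day (SE 0.069, -0.07 to 0.26), and these 2 groups did not overlap. The control chosen sets the direction: without control replicate 2 the change was 0.040 at 1 day and 0.134 at 10 days, and without control replicate 1 it was -0.236 and -0.142. Each of these fits keeps 1 control mouse and so holds no spread between controls. In the fit of all 8 arrays no adjusted p passed.

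**Figure D1:**
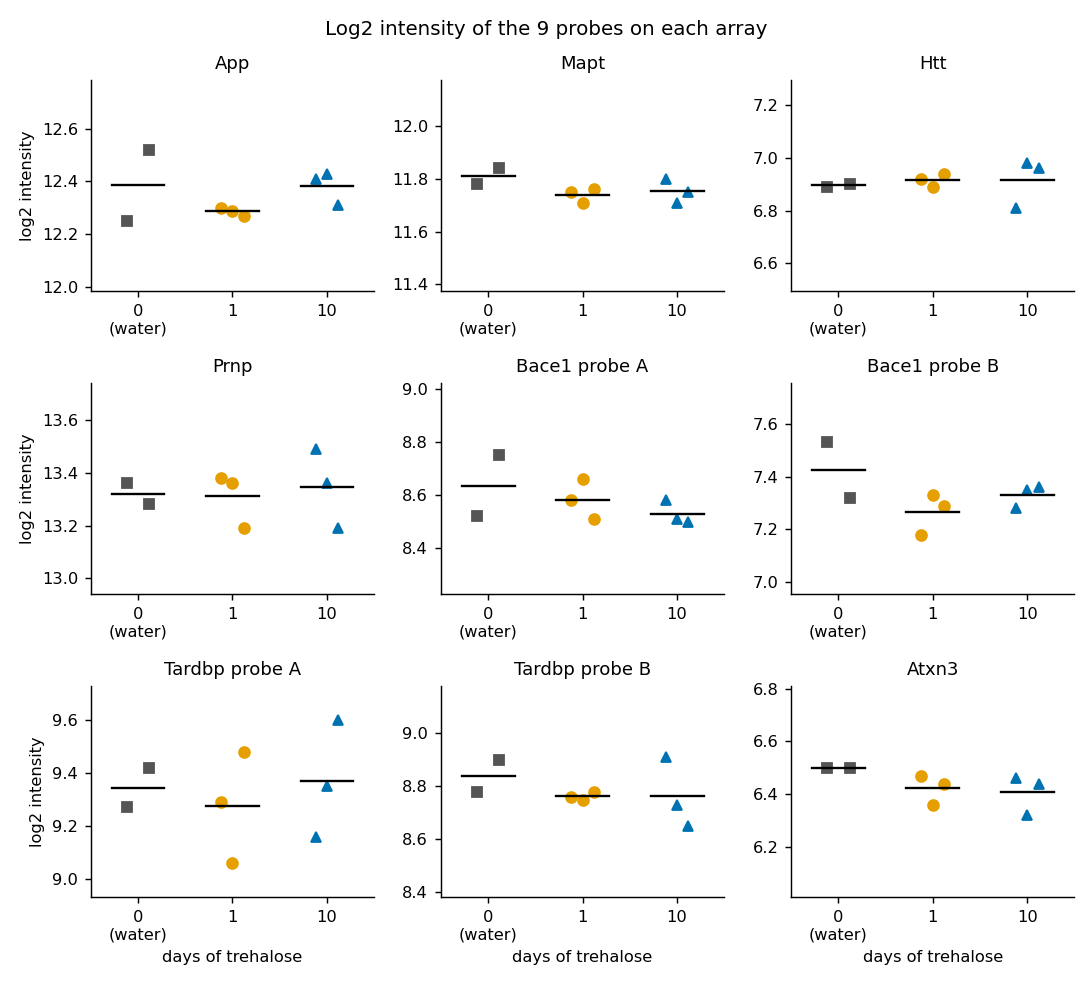
Log2 intensity of the 9 probes by days of trehalose, with 1 point per mouse (squares control, circles 1 day, triangles 10 days) and a bar at each group mean; every panel spans 0.8 log2 units, so spreads can be set side by side. The 2 App controls at 12.25 and 12.52 enclose all 6 trehalose arrays, and Tardbp probe A spreads most, between 9.06 and 9.60.

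Bace1, the beta-secretase, was measured by both of its probes at slightly lower group means under trehalose, without passing the test. Probe A read 8.52 and 8.75 in control, 8.58, 8.66 and 8.51 at 1 day, and 8.58, 8.51 and 8.50 at 10 days. Probe B read 7.53 and 7.32 in control, 7.18, 7.33 and 7.29 at 1 day, and 7.28, 7.35 and 7.36 at 10 days. The high control was replicate 2 for probe A and replicate 1 for probe B, so the probes disagree on which control mouse had more Bace1 RNA. Over the 8 arrays no relation between them was detected, with r = -0.238 (exact permutation p = 0.529) and rho = -0.357 by ranks (exact permutation p = 0.389), and r = -0.586 without the 2 arrays farthest from the median of probe A.

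At 1 day against control the log2 change was -0.052 for Bace1 probe A (SE 0.075, 95% interval -0.23 to 0.12) and -0.159 for probe B (SE 0.071, -0.32 to 0.0063). Probe B had the lowest unadjusted p of the 9 probes, 0.0573 by limma, and an adjusted p of 1 over all probes. At 10 days against control the changes were -0.105 (SE 0.075) and -0.093 (SE 0.071). Without control replicate 2 the change of probe A was 0.066 at 1 day and 0.012 at 10 days, and without control replicate 1 it was -0.169 and -0.223. The change of probe B was -0.266 at 1 day and -0.200 at 10 days without control replicate 2, and -0.051 and 0.015 without control replicate 1. Each probe thus depends on which control mouse is kept, in opposite ways, and no adjusted p passed.

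Mapt was the steadiest of the 9 probes in range. Log2 intensity of Mapt was 11.78 and 11.84 in control, 11.75, 11.71 and 11.76 at 1 day, and 11.80, 11.71 and 11.75 at 10 days, so the whole set lay within 0.130. All 3 arrays at 1 day were below both controls, while 1 of the 3 at 10 days lay between them. The change was -0.066 at 1 day against control (SE 0.042, 95% interval -0.16 to 0.03) and -0.054 at 10 days against control (SE 0.042, -0.15 to 0.04). On the linear scale these intervals run from 0.893-fold to 1.02-fold and from 0.900-fold to 1.03-fold, the narrowest of the 9 in both comparisons.

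Of the polyglutamine genes, Htt had group means within 0.025 of each other, and Atxn3 read slightly lower in all trehalose mice. Htt measured 6.89 and 6.90 in control, 6.92, 6.89 and 6.94 at 1 day, and 6.81, 6.98 and 6.96 at 10 days. Both controls lay inside the range at 10 days, and the changes were 0.020 at 1 day against control (SE 0.054, 95% interval -0.11 to 0.15) and 0.025 at 10 days against control (SE 0.054, -0.10 to 0.15). With single arrays left out the second ran from -0.0084 (without trehalose 10 days replicate 2) to 0.077 (without replicate 1). Atxn3 measured 6.50 and 6.50 in control, 6.47, 6.36 and 6.44 at 1 day, and 6.46, 6.32 and 6.44 at 10 days. Its 6 trehalose arrays were all below both controls, and its changes were -0.075 at 1 day against control (SE 0.053, -0.20 to 0.05) and -0.089 at 10 days against control (SE 0.053, -0.21 to 0.03), neither of which passed the test (unadjusted p by limma 0.194 and 0.131).

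Both polyglutamine probes were dim, so the offset added to the intensities compresses their changes. Spots of Atxn3 stood at 1.78 to 2.43 times the mean of the blank spots and those of Htt at 3.02 to 3.73 times. With the blank mean subtracted in place of the offset, the change of Atxn3 was -0.20 at 1 day against control (95% interval -0.52 to 0.13) and -0.24 at 10 days against control (-0.56 to 0.09). The authors' deposited table of processed intensities gave -0.25 (-0.67 to 0.18) and -0.21 (-0.64 to 0.22). In that table the interval of Atxn3 at 1 day reached down to 0.627-fold, so a decrease of that size lay inside the error. For Htt the blank-subtracted changes were 0.036 (-0.21 to 0.28) and 0.042 (-0.20 to 0.29).

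Tardbp probe A varied most of the 9 probes between mice of the same group. This probe, listed for a coding transcript, read 9.27 and 9.42 in control, 9.29, 9.06 and 9.48 at 1 day, and 9.16, 9.35 and 9.60 at 10 days. Each trehalose group held an array below and an array above both controls. The SD left after the group means was 0.198, at percentile 97.1 of all tested probes, and the changes were -0.066 at 1 day against control (SE 0.149, 95% interval -0.41 to 0.28) and 0.022 at 10 days against control (SE 0.149, -0.32 to 0.37).

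Tardbp probe B, listed for a non-coding transcript, read 8.78 and 8.90 in control, 8.76, 8.75 and 8.78 at 1 day, and 8.91, 8.73 and 8.65 at 10 days. The 3 arrays at 1 day lay close together, and the highest of them tied with the lower control at 8.784. The changes were -0.082 (SE 0.076) at 1 day and -0.084 (SE 0.076) at 10 days, both against control. With single arrays left out these ran from -0.142 to -0.023 and from -0.158 to -0.024. The SD left after the group means was 0.094, less than for probe A. Probes A and B of Tardbp showed no detectable relation over the 8 arrays, with r = -0.347 (exact permutation p = 0.400) and rho = -0.287 by ranks (exact permutation p = 0.487), and r = -0.233 without the 2 arrays farthest from the median of probe A. With trehalose 10 days replicate 3 left out the change of probe A at 10 days was -0.093, and with trehalose 1 day replicate 2 left out its change at 1 day was 0.042.

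The group means of Prnp lay within 0.036 of each other, with a wide spread inside each trehalose group. Log2 intensity of Prnp was 13.36 and 13.28 in control, 13.38, 13.36 and 13.19 at 1 day, and 13.49, 13.36 and 13.19 at 10 days. Both trehalose groups reached above and below both controls. The changes were -0.010 at 1 day against control (SE 0.094, 95% interval -0.23 to 0.21) and 0.025 at 10 days against control (SE 0.094, -0.19 to 0.24). Leaving out single arrays carried the first between -0.050 and 0.051 and the second between -0.047 and 0.105. Among arrays that share a replicate number, Prnp was higher in both trehalose mice than in the control for numbers 1 and 2, while number 3, with 13.19 in both trehalose mice, has no control. With a replicate block the changes were 0.060 and 0.096, and neither was called by limma. In the sets numbered 1 and 2 the control also has the highest sample number, described below, and Prnp read lower at higher numbers. The differences within these sets, and the block changes, cannot be told apart from that relation.

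None of the 9 probes passed an adjusted p of 0.05 by limma in any comparison, nor did any of the 21583 probes tested (0%), and 0 of the 9 reached an unadjusted p under 0.05. The share of all tested probes at an unadjusted p under 0.05 was 3.65% at 1 day against control (788 probes), 2% at 10 days against control (432 probes), 3.5% at 10 days against 1 day (756 probes) and 2.63% for both trehalose times averaged against control (568 probes). In that last comparison the changes of the 9 probes ran from -0.126 (Bace1 probe B) to 0.022 (Htt).

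Separate ranges were found for 2 of the 9 probes at 1 day against control, Mapt and Atxn3, both lower, where 18.2% of all tested probes had groups that did not overlap. At 10 days against control it was 1 of 9, Atxn3, against 13.4% of all probes. For 10 days against 1 day it was App alone, higher at 10 days, against 8.39%, and for both trehalose times together against control Atxn3 alone, against 4.73%. These comparisons share control mice, so Atxn3 stands each time against the same 2 control values.

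More members had changes below 0 than above at 1 day: 8 of 9 were lower than control, with a median log2 change of -0.066, where the median over all tested probes was -0.000302 and 49.7% of them were higher. This count rests on control replicate 2: without it 5 of 9 were lower and the median was -0.023. At 10 days against control 6 of 9 were lower and the median was -0.054, against -0.0017 over all probes, and without control replicate 2 these were 5 of 9 and -0.014. At 10 days against 1 day 6 of 9 were higher and the median was 0.012, against -0.0015, and without trehalose 1 day replicate 2 only 3 of 9 were higher. The 9 probes share the same arrays and, for Bace1 and Tardbp, the same gene, so these counts describe the list and are no test of it.

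**Figure D2:**
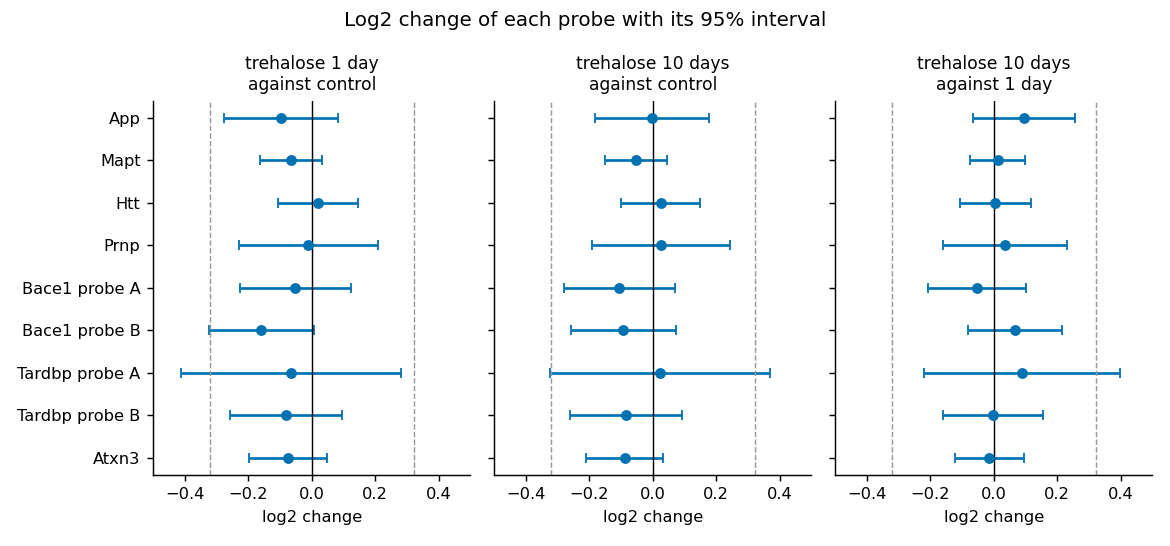
Log2 change of each probe (points) with its 95% interval from limma (bars) in 3 comparisons; the solid line marks no change and the dashed lines mark 1.25-fold in either direction. Every interval holds 0, and at 10 days against control only Tardbp probe A reaches past a dashed line.

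The intervals give the size of change that these arrays leave room for. Taking 1.25-fold as a mark chosen after the values were seen, 7 of the 9 intervals stayed within it at 1 day against control, 8 of 9 at 10 days against control and 8 of 9 at 10 days against 1 day. The same held for 87.9%, 89.7% and 91.9% of all tested probes. The widest interval reached 0.41 on the log2 scale at 1 day and 0.37 at 10 days against control, or 1.33-fold and 1.29-fold, each for Tardbp probe A. These bounds hold on the scale with the offset, and for the dim probes Atxn3 and Bace1 probe B they widened to 1.44-fold and 1.42-fold at 1 day with the blank mean subtracted, and to 1.60-fold and 1.57-fold in the authors' deposited table. Subtracting the local background column, which follows the spot signal with a correlation of 0.936 to 0.983 per array, turned the sign of 14 of 36 member changes and widened the bound on the log2 scale to 2.30 at 1 day and 2.14 at 10 days against control. With 1 array left out the bound reached 0.62 and 0.57.

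Descriptions of the samples start with a number, 1 to 8, that cuts across the groups, and the labels do not say what it means. Numbers 1 to 3 are the replicates numbered 1, 4 to 6 those numbered 2, and 7 and 8 those numbered 3, so a relation with this number and a difference between replicate sets cannot be told apart. Prnp read lower at higher numbers, with r = -0.884 over the 8 samples (exact permutation p = 0.00466), rho = -0.898 by ranks (exact permutation p = 0.00456) and r = -0.931 without samples 1 and 8. Samples 7 and 8, of 1 day and 10 days, both read 13.19, the lowest values of Prnp. Tardbp probe A read higher at higher numbers, with r = 0.755 (exact permutation p = 0.031) and rho = 0.786 (exact permutation p = 0.0279), and r = 0.793 without samples 1 and 8. These were the 2 of 9 relations with a permutation p under 0.05, where 10.7% of 21572 probes had one. After Benjamini-Hochberg adjustment over those probes the permutation p was 0.350 for Prnp and 0.431 for Tardbp probe A, so neither passed. With the number as a covariate the changes against control were -0.030 at 1 day and 0.045 at 10 days for Prnp, and -0.040 and -0.00406 for Tardbp probe A, the last with its sign turned. In that fit 3 of the 36 member changes turned sign and 0 member probes were called.

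**Figure D3:**
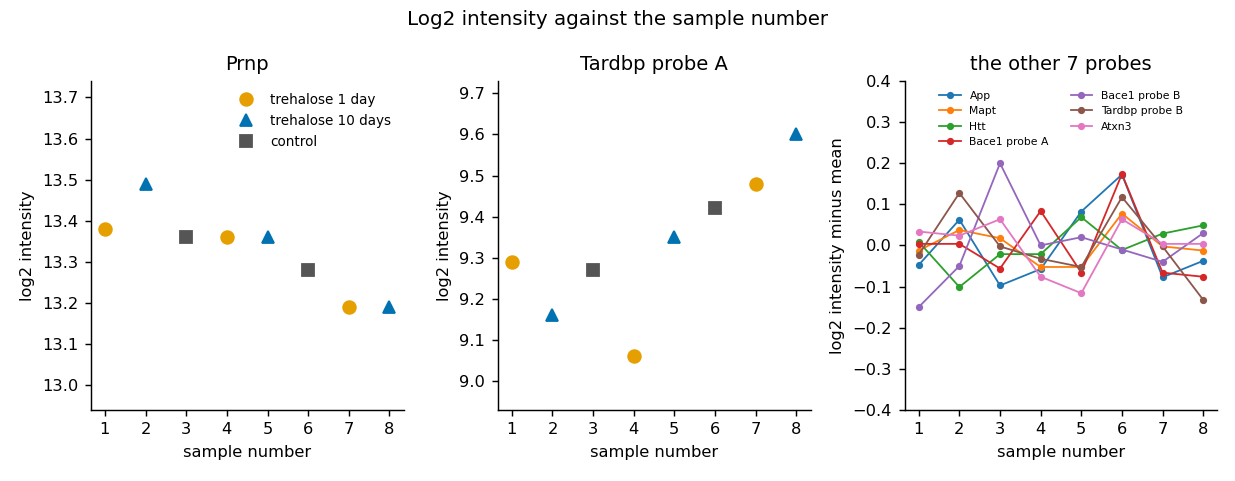
Log2 intensity of Prnp (left) and Tardbp probe A (middle) against the sample number, by group, and of the other 7 probes as the difference from each probe's mean (right). Prnp runs from 13.38 and 13.49 at samples 1 and 2 to 13.19 at samples 7 and 8, while Tardbp probe A is highest, 9.60, at sample 8.

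Among themselves the members did not vary as one block. Of 34 pairs of probes from different genes, 4 had an exact permutation p under 0.05 for Pearson's r, and after Benjamini-Hochberg adjustment over the 34 pairs the smallest adjusted p was 0.200. By Pearson's r the closest pair was Mapt and Atxn3, with r = 0.854 (exact permutation p = 0.00853) and rho = 0.778 (exact permutation p = 0.0301), and r = 0.858 without the 2 arrays farthest from the median of Mapt. By ranks it was Mapt and Tardbp probe B, with rho = 0.892 (exact permutation p = 0.00516, adjusted 0.175), r = 0.750 (exact permutation p = 0.0288) and r = 0.669 without those 2 arrays. Prnp and Tardbp probe A ran opposite to each other, with r = -0.827 (exact permutation p = 0.0118) and rho = -0.790 (exact permutation p = 0.0248). Without the 2 arrays farthest from the median of Prnp this r was -0.577 (exact permutation p = 0.206). The relation kept its sign but was not detected over the narrower range of the other 6. After group and sample number were taken out of both probes r was -0.900, a description without a test. App and Bace1 probe A, substrate and protease, had r = 0.573 (exact permutation p = 0.133) and rho = 0.310 (exact permutation p = 0.462), and r = 0.223 without the 2 arrays farthest from the median of App. With Bace1 probe B, App had r = -0.216 (exact permutation p = 0.593) and rho = -0.190 (exact permutation p = 0.665). After group and sample number were taken out, r with App was 0.807 for probe A and -0.808 for probe B. Both are descriptions without a test. Within groups App spread most between the 2 controls (SD 0.195, against 0.012 at 1 day and 0.065 at 10 days). Both values of r therefore rest largely on the contrast between the 2 control mice. The 2 probes of Bace1 thus gave opposite signs.

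**Figure D4:**
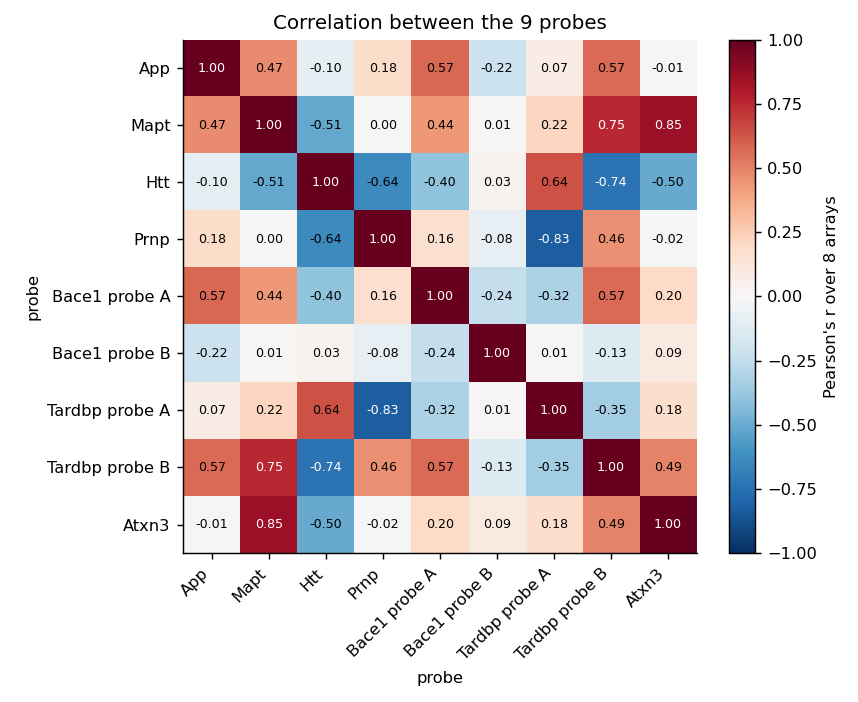
Pearson's r over the 8 arrays for each pair of the 9 probes, printed in each cell, from blue (-1) to red (1). Mapt with Atxn3 (0.85) and Prnp with Tardbp probe A (-0.83) are the strongest pairs, and the 2 probes of Bace1 (-0.24) and of Tardbp (-0.35) do not follow each other.

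The probes of other genes most like each member were those with the highest Pearson's r over the 8 arrays, out of 19110 or 19111 probes with a symbol. With so many candidates and 8 arrays, values above 0.9 arise in this search for every member, and they are given as a description. For App these were Osbpl7 (r = 0.984) and Lgi1 (0.970), and for Prnp Sptlc2 (0.976), a subunit of the first enzyme of sphingolipid synthesis, and Bmx (0.972). Magi3 (0.990) was closest to Tardbp probe A, Ptk7 (0.979) to Htt, Arhgap28 (0.946) to Mapt, Gsto2 (0.961) to Bace1 probe A and Olfr1328 (0.962) to Atxn3. Sptlc2 also read lower at higher sample numbers (r = -0.856), which follows largely from its choice by likeness to Prnp on the same arrays.

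Around the 7 genes stand their pathways, taken as 6 lists of 101 genes, of which 92 were found on the array by symbol, with 100 tested probes. By limma 0 of the 100 probes passed an adjusted p of 0.05 in any comparison. At an unadjusted p under 0.05 there were 5 at 1 day against control, 3 higher and 2 lower, against the 3.65% of all probes given above, and 4 at 10 days against control, 3 higher and 1 lower, against 2%. The list medians lay between -0.017 and 0.075 at 1 day and between -0.025 and 0.042 at 10 days.

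In the App family and secretase list, 11 of 26 probes were higher and 15 lower at 1 day, and 8 were higher and 18 lower at 10 days. At 1 day the lowest p belonged to Adam9, a metalloprotease that can cut the amyloid precursor protein, with a change of -0.22 (SE 0.08), and Aplp1, a relative of App, with -0.15 (SE 0.09). At 10 days these were Apoe, the main lipid carrier of the brain, with 0.105 (SE 0.045), and the App adaptor Apba2 with -0.125 (SE 0.064). Of the tau kinases, phosphatase and microtubule-associated proteins, 8 of 21 probes were higher at 1 day and 13 at 10 days. Gsk3b, a tau kinase, had -0.22 (SE 0.08) and Map4 -0.13 (SE 0.09) at 1 day, while Ppp2cb, a catalytic subunit of the phosphatase PP2A, had 0.157 (SE 0.046) and the kinase Mark2 -0.057 (SE 0.045) at 10 days.

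In the polyglutamine list 10 of 17 probes were higher at 1 day and 5 at 10 days. Atxn1, the gene of ataxin-1, had 0.078 (SE 0.034) at 1 day and 0.106 (SE 0.034) at 10 days. Its probe averaged 6.00 in control, dimmer than Atxn3, so the offset compresses its changes and their spread as well. Zdhhc17, which encodes a palmitoyltransferase of huntingtin, had -0.21 (SE 0.14) at 1 day, and Atn1, the gene of atrophin-1, had -0.173 (SE 0.063) at 10 days. Of the TDP-43 partners and other RNA-binding or ALS genes, 11 of 16 probes were higher at 1 day and 10 at 10 days. The changes were 0.114 (SE 0.037) for the axonal protein gene Stmn2 and 0.146 (SE 0.056) for the ubiquitin-binding Ubqln2 at 1 day, and 0.095 (SE 0.050) for Grn, the gene of progranulin, and 0.093 (SE 0.056) for Ubqln2 at 10 days.

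Among synuclein and Parkinson disease genes 7 of 12 probes were higher at 1 day and 8 at 10 days. Sncg, the gene of gamma-synuclein, had 0.148 (SE 0.053) at 1 day and 0.119 (SE 0.053) at 10 days, Synj1, a synaptic phosphatase, had -0.17 (SE 0.08) at 1 day, and Park7 had 0.121 (SE 0.089) at 10 days. In the list of prion family and partners 4 of 8 probes were higher at 1 day and 7 at 10 days. There the endocytic receptor Lrp1 had -0.127 (SE 0.067) and the co-chaperone Stip1 0.066 (SE 0.078) at 1 day, and Stip1 0.096 (SE 0.078) and the glutamate receptor Grm5 0.060 (SE 0.054) at 10 days. All changes in these lists are against control and on the log2 scale.

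**Figure D5:**
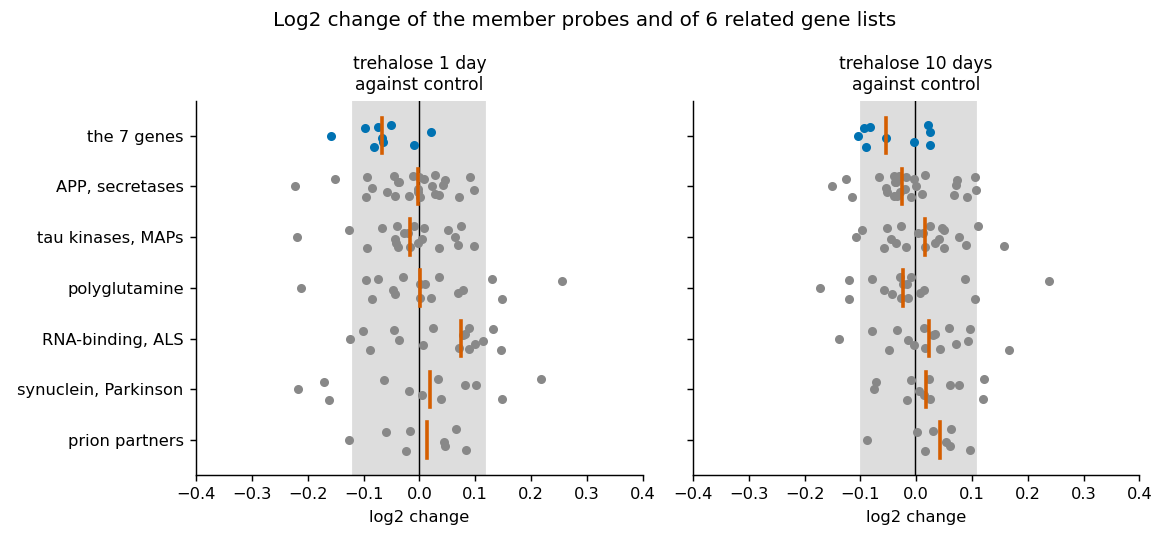
Log2 change against control at 1 day (left) and 10 days (right) for the 9 probes of the 7 genes (blue) and for the probes of 6 related lists (grey), 1 point per probe, with list medians in orange; the shaded band holds the middle 90% of all 21583 tested probes and the black line is their median. The 9 probes have medians of -0.066 and -0.054, and the list of TDP-43 partners has the highest median at 1 day, 0.075.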

How the data were processed

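Per the file headers, the deposited scanner files hold a median intensity per spot in the Cy5 channel, fitted across 3 gains by least squares, with a local background intensity and a flag per gain. The authors also deposited a table of processed intensities on a linear scale, with a median of 25.0 on each array, whose making is not given in the sources used here. Per the labels' protocols, Trizol RNA was amplified with amino allyl labelling and coupled to Cy5. Software, scan dates and slides are not given in the sources used here. Spot medians were corrected by normexp (offset 50), quantile normalized and taken to log2 with limma 3.58.1 in R 4.3.3, with failed spots set to missing. A probe was tested if above the mean plus 2 SD of the blanks on at least 2 arrays (21583 of 23473 probes, 19122 with a symbol). The platform annotation gave 1 symbol to 20690 probes and none to 2783. All 8 arrays entered 1 limma fit of 3 groups with 5 residual degrees of freedom, two-sided contrasts and Benjamini-Hochberg adjustment. Precision is limited by having 8 arrays. The members and lists were chosen with earlier results of these data known. Named were all member probes and the 2 probes of lowest p per list and comparison with control. Of the 2 probes most correlated with each member probe, both were named for App and Prnp. For the other member probes only the closest was named, and none for Bace1 probe B and Tardbp probe B. The fit was also run on simulated data, whose outcome is not given here and is no support for the absence of calls. Alternatives were other background corrections, offsets, normalizations, filters, variance models, array weights, the authors' table, gene averages, a replicate block, the sample number and each array left out.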

Additional observations from a re-analysis of the deposited data

How the results depend on the processing

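None of the 9 probes was called under any of the 19 alternatives that tested all 9, while the count over all probes was 1 in place of 0 with the blank mean subtracted and with trend and robust variances, at 10 days against control and at 10 days against 1 day. Leaving out 1 array gave 0 to 2 calls over all probes in the 3 comparisons with control, the 2 without control replicate 1, and 0 in all 8 fits for 10 days against 1 day. Apart from the local background and left-out arrays, 14 of 371 member changes turned sign and 11 moved by more than the SD between mice. With 1 array left out, 38 of 288 turned and 18 moved, all 18 without a control mouse. Fits without a control mouse keep 1 control, so their p-values hold no spread between controls. Without trehalose 1 day replicate 2, whose striatum markers were lowest, 6 of 36 turned and 0 moved. An unadjusted p by limma under 0.05 was reached by 12 of those 288, with no call. Subtracting the local background column turned 14 of 36 and moved 28, and the changes then ran from -1.05 (Mapt, 10 days against 1 day) to 0.61 (Mapt, 1 day against control). The cause was not tested. It also turned r with the sample number to 0.0433 for Prnp and -0.521 for Tardbp probe A, and r to 0.218 for Htt with Tardbp probe B and 0.103 for Prnp with Tardbp probe A. Probes with a permutation p under 0.05 for the sample number numbered 0 there and 1 without samples 1 and 8, against 2. Pairs with one numbered 2 there, 2 in the authors' table and 2 without the 2 farthest arrays, against 4.

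Replicate numbers are shared by the groups. Deviations of same-numbered arrays from their group means correlated at -0.026 to 0.262, over 0.1 in 6 of 7 pairs. Those of differently numbered arrays correlated at -0.314 to 0.214, over 0.1 in 2 of 14. Such deviations cancel within each group, and those of the 2 controls mirror each other. Positive values in same-numbered pairs therefore push other pairs down, and the contrast of the 2 counts is no test of pairing. The numbers were not taken to pair mice, since no label says that they do, and these correlations cannot decide it. With a replicate block 0 probes were called in each comparison, and 3 of 36 member changes turned sign.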
